A study of Homo sapiens with 6 samples.

Results

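The actin filament structural and regulator genes are a set of 59 genes grouped by what their proteins do to the actin cytoskeleton. They are 20 filament components, 19 nucleators (proteins that start filaments, with the factors that activate them) and 20 other regulators. The rule uses gene function and no measured value, and each gene was given the sum of the estimated counts and abundances of its transcripts. Of 34834 genes with a quantified transcript, these are 59, and 49 of them passed the filter on low counts and were tested.

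The RNA came from SKOV3, a human ovarian cancer cell line, cultured in RPMI1640 with serum. In the knockdown group, cells were transfected with 50 nM of a pool of siRNAs (SMARTpool) against DNM3OS, a long non-coding RNA that the study examines in the epithelial to mesenchymal transition. In the control group they received 50 nM of a pool of non-targeting siRNAs. All 6 samples shared the line, Lipofectamine 2000 as carrier, a time of 48 h and stranded total RNA libraries depleted of ribosomal RNA, with 3 samples in each group. A single line was used, and nothing in the labels says that the 3 samples came from separate cultures, so p-values measure only the spread between these samples.

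Actin monomers polymerize into polar filaments. Tropomyosins, transgelins and calponins lie along the filament, and non-muscle myosin II pulls on it to produce contraction. The ARP2/3 complex starts branches on existing filaments when proteins of the WASP and WAVE families activate it, whereas formins start and extend unbranched filaments. Profilins and thymosins bind monomers, cofilins sever filaments, capping proteins close their ends, and ezrin, radixin and moesin tie them to the plasma membrane. In cells undergoing an epithelial to mesenchymal transition, cortical actin is reorganized into stress fibres and protrusions. Free monomers also hold the coactivators MRTFA and MRTFB away from the nucleus, where they would otherwise activate transcription with SRF.

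SRF binds a DNA element called the CArG box, and many actin genes carry it near their start. RefSeq promoter windows (GRCh38.p14, 250 bases before to 50 after the start) were available for 51 of the 59 genes. No window was in the table for ACTB, ARPC1B, CTTN, FSCN1, MYL9, PFN2, TAGLN or WASF2. A CArG box, searched by its letters on both strands, was found in 5 of the 51 windows (9.8%) and in 1.6% of the windows of all 27305 genes in the table. These 5 were ACTG1, TPM4, CNN2, MYLK and SRF, and each window rests on the start that RefSeq's table gives. For MYLK that start lay 263784 bases inside the gene as GENCODE spans it, so it is not the start of the full-length kinase, and its sequence is not shown. It lay 11048 bases inside the gene for ACTG1, 517 for TPM4, 22 for CNN2 and 0 for SRF. The last 180 bases before the RefSeq start of the other 4 are shown because they hold the element bound by the set's own transcription factor. Each is read 5′ to 3′ on the gene's strand, and capitals mark the CArG box.
ACTG1: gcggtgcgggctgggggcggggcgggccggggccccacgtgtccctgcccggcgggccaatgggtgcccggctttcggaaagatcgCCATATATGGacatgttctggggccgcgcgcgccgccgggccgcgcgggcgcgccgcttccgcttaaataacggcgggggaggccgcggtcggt
TPM4: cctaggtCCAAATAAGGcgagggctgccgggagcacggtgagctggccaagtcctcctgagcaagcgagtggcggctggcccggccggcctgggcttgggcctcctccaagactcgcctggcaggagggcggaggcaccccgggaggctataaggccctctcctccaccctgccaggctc
CNN2: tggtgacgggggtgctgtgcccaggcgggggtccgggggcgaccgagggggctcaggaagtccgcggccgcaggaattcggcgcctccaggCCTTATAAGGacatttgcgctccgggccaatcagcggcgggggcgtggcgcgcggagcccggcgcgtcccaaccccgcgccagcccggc
SRF: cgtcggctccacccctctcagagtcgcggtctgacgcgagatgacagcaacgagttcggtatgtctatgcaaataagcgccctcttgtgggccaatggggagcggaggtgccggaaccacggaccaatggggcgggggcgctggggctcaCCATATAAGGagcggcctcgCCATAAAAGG
These stretches lie at chr17:81512800-81512979 on the minus strand for ACTG1, chr19:16067358-16067537 on the plus strand for TPM4, chr19:1026428-1026607 on the plus strand for CNN2 and chr6:43171089-43171268 on the plus strand for SRF. The first base of the box lay 94 bases before the RefSeq start in ACTG1, 89 in CNN2 and 173 in TPM4. SRF held 2 boxes, at 30 and 10 bases before the start. Transcripts starting within 200 bases of the RefSeq start held 25.6% of the counts of ACTG1, 20.03% of those of CNN2, 100% of those of SRF and 0% of those of TPM4 and MYLK. Most counts of the first 2 and all of TPM4 and MYLK were thus assigned to transcripts with other starts. The match is a description of the sequence, and binding of SRF was not measured.

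Estimated counts summed to between 1610937 and 1995888 per library, and 3 counts corresponded to between 1.606 and 1.97 CPM (counts relative to library size) before scaling. DNM3OS itself could not be checked, because none of its 6 transcripts in GENCODE 44 was in the quantified transcript set. The 77 ribosomal protein genes held between 0.19% and 0.51% of gene counts, lowest in knockdown replicate 1 and highest in non-targeting replicate 1. Knockdown replicate 1 also had a TMM scaling factor of 1.18, against 0.927 to 1.02 in the other 5 libraries. Several results below that rest on it are given with and without it. Others are given only with it, such as the fold changes of MYH9, CFL1, PFN1 and RDX and the medians of single functional groups. Knockdown replicate 1 was the lowest library for each of the genes named. Epithelial KRT8 was among the most abundant genes, and KRT18, KRT19, EPCAM, PAX8 and ERBB2 were detected in each library. Epithelial KRT7 had 4 to 12 counts and was not tested, and WT1 and MUC16 had at most 4 counts in a library. Of markers of other cell types, CD14 had 0 counts in all libraries. CD3E, VWF and PDGFRB had at most 2, LUM at most 3 and CDH5 at most 4. The immune gene PTPRC had between 91 and 148 counts and PECAM1 between 24 and 62. The fibroblast genes DCN, COL1A1 and COL1A2 had between 29 and 58, between 10 and 19 and between 8 and 22. By mean TPM, PTPRC (80.5) lay above KRT18 (69.8) and KRT19 (70.1). The strand on which reads were counted is not given in the sources used here, and its part in the values below was not tested.

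No member passed the study's threshold of an adjusted p under 0.05 and at least 2-fold in edgeR's exact test, in either direction, whereas the threshold was passed by 0.00846% of the 11814 tested genes as lower and by 0% as higher. The smallest adjusted p of a member was 0.594, for TAGLN2. Of the 49 tested members, 32 had a fitted log2 fold change below 0 and 17 above, with a median of -0.23, beside a median of 0.0041 and 49.4% below 0 over all tested genes. At an unadjusted p under 0.05 there were 4 lower members, ACTB, TAGLN2, ARPC1A and ARPC3, and 0 higher ones, where the shares over all tested genes were 1.91% and 1.01%. DESeq2 and edgeR's quasi-likelihood test also called 0 members, and their shares over all tested genes are not given. Standard errors below are those of the difference of mean log2 CPM. Among the members with sample values, that difference was over 1.5 times away from the fitted value for ACTG1 and for ACTA2 (-0.10), TMSB10 (-0.90), CAPZA1 (-0.29), EZR (-0.34) and MRTFB (0.03).

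The members whose 3 knockdown libraries all lay below all 3 controls were ACTB, TAGLN2, ACTR3, ARPC1A and PFN2, which is 5 of 49 against 3.56% of all tested genes. DAAM1 was the 1 member whose knockdown libraries all lay above the controls, against 4.42% of all tested genes. With knockdown replicate 1 left out, 6 members were lower without overlap, against 7.59% of genes, and 2 were higher, against 10.5%. Leaving out non-targeting replicate 2 instead gave 20 lower members, against 15.0% of genes, and 4 higher members, against 12.8%. Without knockdown replicate 2 or 3 there were 9 lower members each, against 8.85% and 8.64% of genes, and 4 higher members each, against 9.73% and 9.31%. Without non-targeting replicate 1 or 3 there were 6 and 5 lower members, against 6.02% and 6.69%, and 2 higher members each, against 6.73% and 7.13%. Length-scaled TPM counts gave 2 lower members, ARPC1A and TAGLN2 (3.99% of genes), and 1 higher, LIMK1 (4.48%). Protein-coding transcripts alone gave 1 lower, TAGLN2, of 41 tested (3.47%) and 0 higher (4.46%). With a library left out, 49 or 50 members passed the filter.

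**Figure D1:**
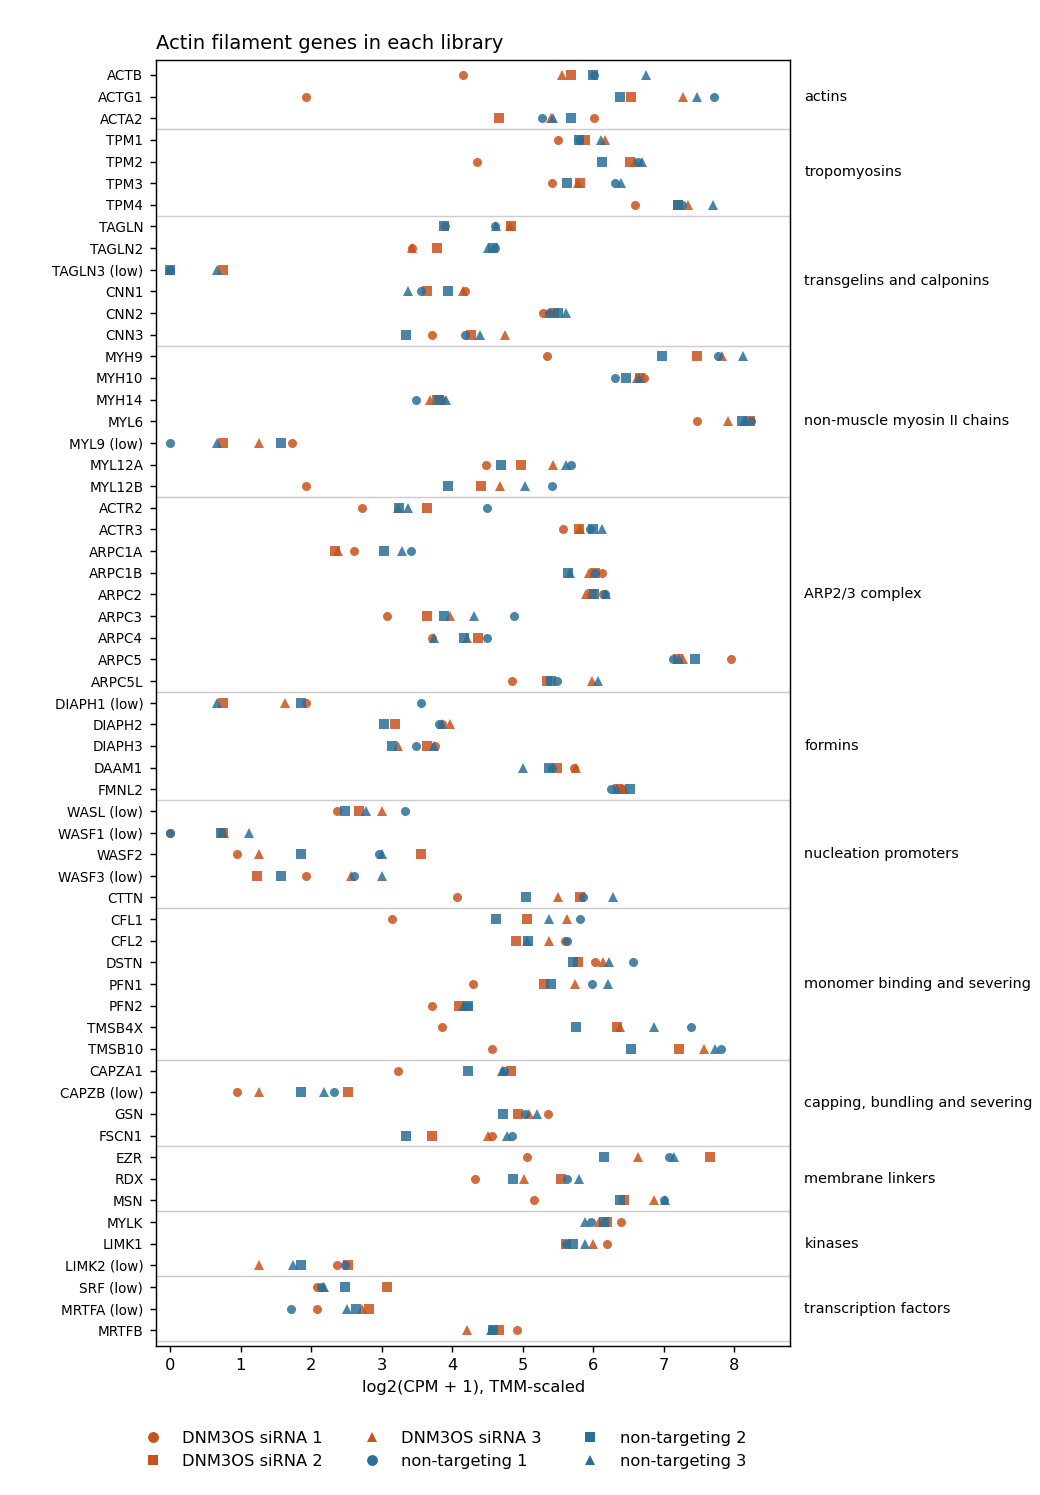
Level of each of the 59 members in each library, as log2(CPM + 1) after TMM scaling, grouped by role, with circles, squares and triangles for replicates 1, 2 and 3, DNM3OS siRNA in orange and non-targeting siRNA in blue. The orange circle of knockdown replicate 1 is the lowest point for 28 of the 49 tested members, and names marked low were not tested.

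Among the actins, cytoplasmic beta-actin (ACTB) had a lower level in each knockdown library than in any control. The gene spans 5526409 to 5563902 of chromosome 7 on the minus strand. It had 16.7, 50.7 and 46.3 CPM in the 3 knockdown libraries and 63.8, 62.9 and 106 CPM in the 3 controls. Knockdown replicate 1 was the lowest and non-targeting replicate 3 the highest, and the groups did not overlap. The means were 37.9 ± 18.5 and 77.7 ± 24.9 CPM (SD, n = 3), a log2 fold change of -1.05 with a standard error of 0.55. In edgeR's exact test the unadjusted p was 0.0085 and the adjusted p was 1. The exact two-sided permutation test gave 0.1, the smallest p that 3 against 3 allows. Without knockdown replicate 1 the log2 fold change was -0.67. It was -0.57 with length-scaled TPM counts and -0.24 with protein-coding transcripts only, and in both the groups overlapped. The transcript ACTB-203, annotated for nonsense-mediated decay, had 0, 0 and 0.71 estimated counts in the knockdown libraries and 28.4, 71.3 and 72.0 in the controls. The coding transcript ACTB-204 had 11.9, 41.6 and 45.2 against 73.0, 13.0 and 58.8, so non-targeting replicate 2 lay below knockdown replicates 2 and 3.

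Cytoplasmic gamma-actin (ACTG1, chromosome 17, 81509413 to 81523847) was nearly absent from 1 knockdown library. Its levels were 2.79, 91.8 and 154 CPM in the knockdown libraries and 210.2, 82.5 and 176 CPM in the controls. Those of knockdown replicates 2 and 3 lay within the range of the controls, so the groups overlapped only through these. The level of knockdown replicate 1 rested on 6 counts, where the other 5 libraries held 126 to 369. This gave a log2 fold change of -0.92 with a standard error of 1.70 (adjusted p = 1 in edgeR's exact test), and -0.34 without knockdown replicate 1. The standard error belongs to the difference of mean log2 CPM, which was -1.92.

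Smooth muscle alpha-actin (ACTA2, chromosome 10, minus strand), a marker of contractile cells, went the other way in that library. It had 63.7, 24.3 and 41.4 CPM in the knockdown libraries and 37.6, 50.4 and 42.3 CPM in the controls. Knockdown replicate 1 was the highest of all 6 and knockdown replicate 2 the lowest. Its log2 fold change was 0.0054 with a standard error of 0.41, and -0.39 without knockdown replicate 1.

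By abundance, which TPM gives per transcript length, the actins did not stand at the top of these libraries. ACTG1 ranked 650 and ACTB 861 of 34834 genes by mean TPM, with 152 and 125 TPM. The transcripts that carried the counts differed between the actins. For ACTA2, 89.7% of the counts were on ACTA2-206, a transcript annotated as a retained intron, and 5.12% were on protein-coding transcripts. Protein-coding transcripts held 61.9% of ACTB and 40.5% of ACTG1 counts. Shares of distinct 31-base words were taken over all quantified transcripts of a gene, without weighting by counts. Of these words in ACTB, 16.1% also occurred in a transcript of another gene on the same strand, with the pseudogene ACTBP2 the largest partner. For ACTG1 11.8% did, with ACTB the largest partner. How reads of these near-identical genes were divided is therefore uncertain. For ACTA2, 8.64% of words occurred on the opposite strand of another gene's transcript, chiefly its neighbour FAS.

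The 4 tropomyosins, which lie in the filament groove and control the access of myosin and cofilin, all had fitted values below 0, from -0.48 to -0.05, with none past the threshold in edgeR's exact test. TPM3 had 41.9, 55.4 and 54.0 CPM in the knockdown libraries against 78.6, 48.4 and 82.9 CPM in the controls. Non-targeting replicate 2 lay among the knockdown libraries, and the log2 fold change was -0.48 with a standard error of 0.27. TPM4 was the most abundant tropomyosin at 189 TPM. It had 95.4, 147 and 162 CPM against 152, 147 and 207 CPM, with the lowest level in knockdown replicate 1 and the highest in non-targeting replicate 3. Its log2 fold change was -0.33 with a standard error of 0.28, and -0.12 without knockdown replicate 1. The retained intron class held 57.0% of TPM4 counts and 4.80% of those of TPM2.

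Transgelin-2 (TAGLN2, an actin-bundling protein of the calponin family expressed outside smooth muscle) was the member with the smallest p. It had 9.77, 12.8 and 9.82 CPM in the knockdown libraries and 23.4, 22.9 and 21.8 CPM in the controls. Every knockdown library lay well below every control, and the spread within each group was small, with means of 10.8 ± 1.75 and 22.7 ± 0.82 CPM (SD, n = 3). The fitted log2 fold change was -1.07 with a standard error of 0.12 (unadjusted p = 6.3e-04 and adjusted p = 0.594 in edgeR's exact test). The exact permutation p was 0.1, the smallest possible, and the log2 fold change was -0.98 without knockdown replicate 1. The level rested on 14 to 21 counts in the knockdown libraries and 35 to 41 in the controls. Counting error alone at such counts exceeds the SD seen, so the small SD and standard error do not measure precision. All of its counts were on protein-coding transcripts, and 10.6% of its words were shared with other genes on the same strand, chiefly the pseudogene TAGLN2P1.

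The other transgelins and calponins, which cover or stabilize filaments, did not share that pattern. Their tested members had log2 fold changes from -0.14 for CNN2 to 0.41 for CNN1. CNN1 had 16 to 37 counts in a library, and 98.5% of its counts were on CNN1-207, a transcript with no defined coding sequence. CNN2, the most abundant of the family at 46.2 TPM, had 38.1, 42.5 and 40.7 CPM against 40.4, 44.5 and 48.2 CPM. The groups overlapped, and the log2 fold change was -0.14 with a standard error of 0.084. TAGLN, a classical SRF target of smooth muscle, had a log2 fold change of 0.16 with a standard error of 0.39, and 32.1% of its words occurred on the opposite strand of another gene, chiefly PCSK7. Neuronal TAGLN3 had at most 1 count in a library.

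Non-muscle myosin II consists of heavy chains that carry the motor and of essential and regulatory light chains. Of its 6 tested chains, 4 had values below 0 and 2 above, with a median of -0.34. The essential light chain MYL6 was the most abundant component, with 583 TPM and 31.9% of the component total. It had 178, 297 and 239 CPM in the knockdown libraries against 303, 276 and 282 CPM in the controls. Knockdown replicate 2 lay among the controls, and the log2 fold change of -0.27 (standard error 0.22) was -0.09 without knockdown replicate 1. Of its counts, 58.9% were on MYL6-220, a transcript with no defined coding sequence, and 13.9% of its words occurred on the opposite strand of another gene, chiefly SMARCC2.

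The regulatory light chain MYL12B had the largest difference of the family, at 2.79, 20.3 and 24.6 CPM against 41.6, 14.4 and 31.8 CPM. Its lowest library was again knockdown replicate 1, and the groups overlapped. For this chain the log2 fold change was -0.90 with a standard error of 0.96, and -0.38 without that library. The heavy chains MYH9, MYH10 and MYH14 had log2 fold changes of -0.49, 0.19 and 0.04. The smooth muscle regulatory light chain MYL9 had 0 to 5 counts and was not tested.

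**Figure D2:**
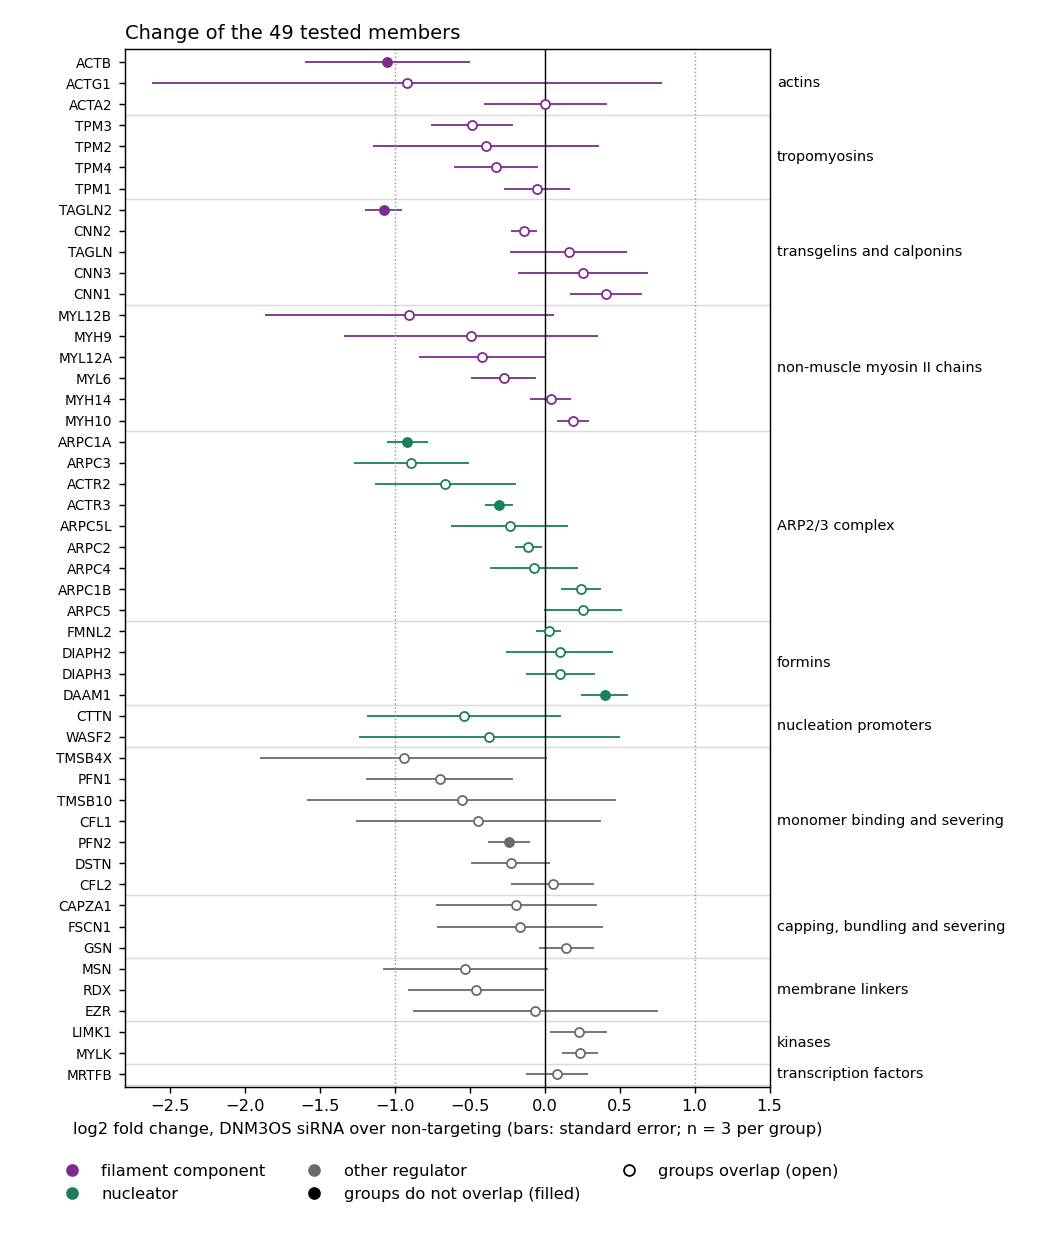
Log2 fold change of knockdown over non-targeting for the 49 tested members, by role, with standard errors from the 3 replicates of each group and dotted lines at a 2-fold change. Filled points mark the 6 members whose groups did not overlap, and the longest bars belong to ACTG1, TMSB10, MYL12B and TMSB4X, which knockdown replicate 1 held far below the other libraries.

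The ARP2/3 complex nucleates branches and is built of several subunits, of which ARPC1 and ARPC5 exist as alternative forms. All 9 genes were tested, 7 had values below 0, and the median log2 fold change was -0.23. ARPC1A had 5.12, 4.05 and 4.21 CPM in the knockdown libraries against 9.68, 7.20 and 8.82 CPM in the controls, without overlap. The log2 fold change was -0.92 with a standard error of 0.14 (unadjusted p = 0.033 and adjusted p = 1 in edgeR's exact test), and the exact permutation p was 0.1, the smallest possible. Without knockdown replicate 1 its log2 fold change was -1.03. These levels rested on 6 to 17 counts, so the small standard error does not measure precision. Of the words of ARPC1A, 56.2% were shared with other genes on the same strand, chiefly the readthrough gene ENSG00000284292. Its alternative ARPC1B, the most abundant nucleator at 142 TPM, had 68.8, 64.2 and 60.3 CPM against 64.4, 49.1 and 50.0 CPM. Non-targeting replicate 1 lay inside the knockdown range, and the log2 fold change was 0.24 with a standard error of 0.13.

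ACTR3, which with ACTR2 forms the template for the new filament, had 46.5, 54.7 and 55.4 CPM in the knockdown libraries and 61.0, 62.9 and 68.8 CPM in the controls. No overlap was seen, although the step between the groups was smaller than for ACTB or TAGLN2. The log2 fold change was -0.30 with a standard error of 0.095 (adjusted p = 1 in edgeR's exact test), and the exact permutation p was 0.1. Without knockdown replicate 1 its log2 fold change was -0.21. Retained intron transcripts held 70.3% of its counts. ARPC3 had a log2 fold change of -0.89 (standard error 0.39, unadjusted p = 0.033 and adjusted p = 1 in edgeR's exact test), but its groups overlapped. The other 5 subunit genes had log2 fold changes from -0.66 for ACTR2 to 0.25 for ARPC5.

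Formins stay at the growing end of a filament while it elongates, and their 4 tested genes all had values above 0, from 0.03 to 0.40. DAAM1, a formin of the planar cell polarity pathway, had 52.1, 43.9 and 53.3 CPM in the knockdown libraries and 41.6, 40.6 and 31.2 CPM in the controls. Each knockdown library was above each control, with knockdown replicate 2 close to the highest control. The means were 49.8 ± 5.13 and 37.8 ± 5.74 CPM (SD, n = 3), and the log2 fold change was 0.40 with a standard error of 0.16. The adjusted p was 1 in edgeR's exact test, and the exact permutation p was 0.1. Without knockdown replicate 1 the log2 fold change was 0.37. Its counts were 59.9% on retained intron transcripts and 39.4% on protein-coding ones. FMNL2, the most abundant formin at 41.6 TPM, had 84.2, 81.0 and 85.6 CPM against 75.2, 91.0 and 80.0 CPM, a log2 fold change of 0.03 with a standard error of 0.083. DIAPH1 had 1 to 19 counts and was not tested.

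Of the nucleation promoters, which switch the ARP2/3 complex on, only CTTN and WASF2 were tested, with log2 fold changes of -0.54 and -0.37. Cortactin (CTTN), which also stabilizes branches, had 15.8, 55.4 and 44.2 CPM against 57.0, 32.1 and 77.1 CPM, with the lowest level in knockdown replicate 1 and overlapping groups. Its log2 fold change had a standard error of 0.64 and was -0.14 without that library. WASL, WASF1 and WASF3 were not tested, with ranges of 7 to 16, 0 to 2 and 2 to 12 counts.

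Among proteins that bind monomers or sever filaments, 6 of 7 had values below 0, with a median of -0.44. That median is the value of CFL1, whose lowest library was knockdown replicate 1. In log2 CPM, knockdown replicate 1 minus the mean of knockdown replicates 2 and 3 was -2.17 for CFL1. The thymosins, small peptides that sequester monomers, were the most abundant regulators. TMSB10 had 600.2 TPM, which was 41.8% of the total of the 20 other regulators. It had 22.8, 148 and 189.5 CPM in the knockdown libraries against 224, 91.7 and 211 CPM in the controls. TMSB4X had 13.5, 79.7 and 82.1 CPM against 166, 53.0 and 115 CPM. In both genes knockdown replicate 1 was the lowest library, non-targeting replicate 2 the next, and the groups overlapped. The log2 fold change of TMSB10 was -0.55 with a standard error of 1.03, and -0.05 without knockdown replicate 1. That of TMSB4X was -0.94 with a standard error of 0.96, and -0.45 without it.

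Profilin-2 (PFN2), which delivers ATP-actin to growing ends, had 12.1, 16.2 and 16.8 CPM against 17.7, 17.7 and 17.1 CPM. The groups did not overlap, but knockdown replicate 3 and non-targeting replicate 3 lay close together. The log2 fold change was -0.24 with a standard error of 0.14, the exact permutation p was 0.1, and the value without knockdown replicate 1 was -0.07. PFN1, the more abundant profilin, had a log2 fold change of -0.70 with a standard error of 0.49. The severing proteins CFL1, CFL2 and DSTN had log2 fold changes of -0.44, 0.05 and -0.23.

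The capping, bundling and severing genes had values near 0 relative to their spread. CAPZA1, a subunit of the capping protein, had 8.37, 27.7 and 25.3 CPM against 25.6, 17.7 and 25.3 CPM. Its log2 fold change of -0.19 (standard error 0.54) became 0.22 without knockdown replicate 1. Gelsolin (GSN) had 40.0, 29.7 and 32.98 CPM against 31.9, 25.5 and 35.9 CPM, a log2 fold change of 0.15 with a standard error of 0.18. FSCN1, which bundles filaments in protrusions, had a log2 fold change of -0.16 with a standard error of 0.56. CAPZB had 2 to 7 counts and was not tested.

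The membrane linkers ezrin, radixin and moesin all had values below 0. EZR had 32.6, 201 and 98.2 CPM against 134, 70.1 and 141 CPM, so that knockdown replicates 1 and 2 were the lowest and the highest of all libraries. Its log2 fold change was -0.06 with a standard error of 0.82, and 0.39 without knockdown replicate 1. MSN had 34.9, 85.8 and 115 CPM against 127, 82.5 and 129 CPM, a log2 fold change of -0.53 with a standard error of 0.55, and -0.16 without that library. RDX had a log2 fold change of -0.46 with a standard error of 0.45.

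The kinases were on the other side of 0. MYLK, which phosphorylates the myosin regulatory light chain, had 83.3, 72.3 and 66.7 CPM against 61.5, 70.1 and 58.2 CPM. LIMK1, which phosphorylates and thereby inactivates cofilin, had 72.6, 47.95 and 63.2 CPM against 47.8, 51.7 and 58.2 CPM. Both had their highest level in knockdown replicate 1, and in both the groups overlapped. Their log2 fold changes were 0.23 with a standard error of 0.12 for MYLK and 0.23 with a standard error of 0.19 for LIMK1. Retained intron transcripts held 77.4% of LIMK1 counts but 9.13% of MYLK counts. LIMK2 had 2 to 9 counts and was not tested.

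Of the transcription factors that read the monomer pool, only MRTFB was tested. It had 29.3, 24.3 and 17.5 CPM against 22.8, 22.9 and 22.4 CPM, a log2 fold change of 0.08 with a standard error of 0.21. The 3 controls lay close together inside the range of the knockdown libraries. SRF had 5 to 11 counts and MRTFA 4 to 9, and neither was tested. The 4 tested genes with a CArG box in the RefSeq window had log2 fold changes of -0.92 (ACTG1), -0.33 (TPM4), -0.14 (CNN2) and 0.23 (MYLK), all with overlapping groups.

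Filament components were then compared with nucleators. The median log2 fold change was -0.30 over the 18 tested components and -0.11 over the 15 tested nucleators, and -0.08 and -0.02 without knockdown replicate 1. Leaving out knockdown replicate 2 or 3 moved the nucleator median to -0.20 or -0.06, and leaving out non-targeting replicate 2 moved it to -0.23. The filter on low counts also mattered. With a filter of 1 CPM the medians were -0.28 for components and -0.26 for nucleators, and with no filter -0.20 and -0.27, so the order of the sides turned round. Summed over all 20 components, TPM was 1255, 1782 and 1818 in the knockdown libraries and 2195, 1582 and 2346 in the controls. The means were 1618 ± 316 and 2041 ± 404 TPM (SD, n = 3), and non-targeting replicate 2 lay inside the knockdown range. The 19 nucleators summed to 562, 518 and 478 TPM in the knockdown libraries and to 591, 454 and 555 TPM in the controls. These groups overlapped widely, at 519 ± 41.9 and 533 ± 70.8 TPM (SD, n = 3).

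The ratio of components to nucleators was 2.23, 3.44 and 3.803 in the knockdown libraries and 3.72, 3.48 and 4.22 in the controls. On the log2 scale the difference was -0.30, beside a pooled SD of 0.31 between replicates, and it was -0.07 without knockdown replicate 1 and -0.45 without knockdown replicate 3. Averaging log2(TPM + 1) over genes, which lets each gene weigh alike, gave -0.07 with all libraries, and protein-coding transcripts alone gave -0.65. The component sum followed the ribosomal protein share library by library, with the exception that the 2 libraries at the top, non-targeting replicates 1 and 3, were in the other order. The nucleator sum did not follow it, and knockdown replicate 1, at the lowest ribosomal share, had the next to highest nucleator sum. ARPC1B held 27.0% of the nucleator total, with 191 TPM in knockdown replicate 1 and 114 to 155 TPM in the other libraries. Gene by gene, the median correlation of log2 CPM with the ribosomal share was 0.71 for tested components and 0.36 for tested nucleators. Among the nucleators it was 0.61 for the ARP2/3 complex and -0.29 for formins. With the ribosomal share as a covariate in edgeR's quasi-likelihood test, the medians of components and nucleators were 0.12 and 0.12. The part of the ribosomal share in the difference was not tested beyond this.

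**Figure D3:**
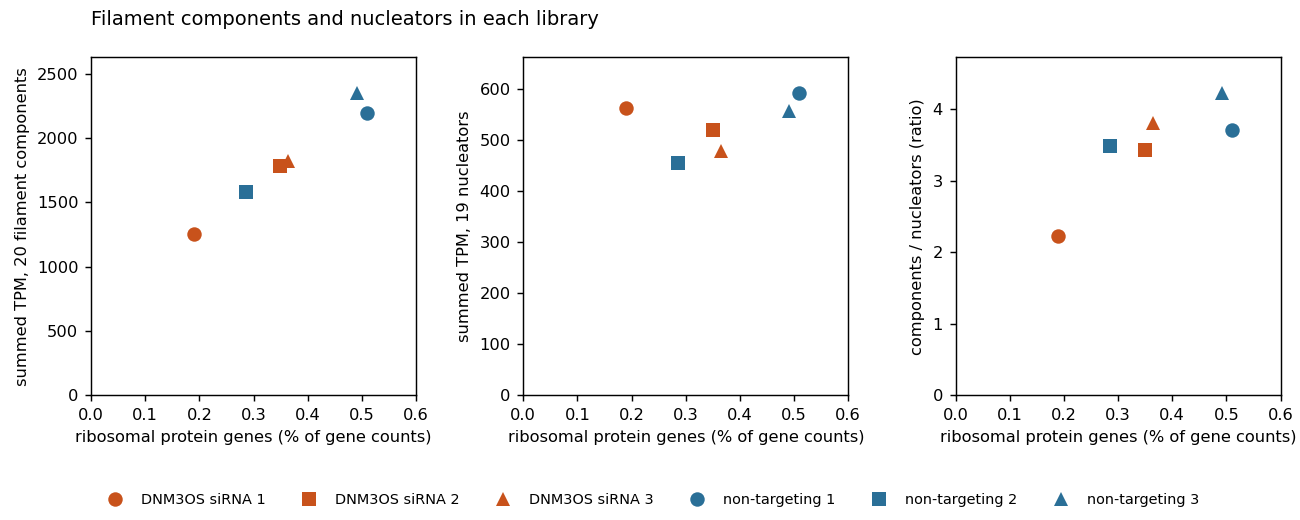
Summed TPM of the 20 components (left) and 19 nucleators (middle) and their ratio (right) in each library, against the percent of gene counts on the 77 ribosomal protein genes. Component sums run from 1255 TPM in knockdown replicate 1 to 2346 TPM in non-targeting replicate 3 along the ribosomal share, while nucleator sums stay between 454 and 591 TPM.

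Knockdown replicate 1 was the lowest of the 6 libraries for 28 of the 49 tested members (57.1%), where it was the lowest for 29.8% of all tested genes. It was the highest for 10 members (20.4%), against 28.0% of all tested genes. The highest level was in non-targeting replicate 1 for 15 members and in non-targeting replicate 3 for 14, or 30.6% and 28.6%, against 19.8% and 13.1% of all tested genes. Non-targeting replicate 2 was the lowest library for 8 members and the highest for 2, so that the controls also differed among themselves.

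Counts were then split by the annotated class of the transcripts. Of all member counts, 63.5% were on protein-coding transcripts and 20.4% on transcripts that keep an intron, beside 66.2% and 12.4% over all protein-coding genes. Protein-coding transcripts of members summed to 1077, 1833 and 2018 CPM in the knockdown libraries and to 2280, 1500 and 2303 CPM in the controls. Their retained intron transcripts summed to 588, 538 and 558 CPM against 622, 549 and 604 CPM. The remaining transcripts, such as those for nonsense-mediated decay or with no defined coding sequence, summed to 293, 500 and 456 CPM against 510, 445 and 577 CPM. Coding and remaining transcripts both had their lowest value in knockdown replicate 1, whereas the retained intron transcripts stayed within a narrower range. On the log2 scale the knockdown mean of coding transcripts differed from that of controls by -0.33, and by -0.05 without knockdown replicate 1. That of retained intron transcripts differed by -0.07, and by -0.11 without it, and that of the remaining transcripts by -0.32, and by -0.09 without it. Within the components, retained intron transcripts differed by -0.30, and by -0.24 without knockdown replicate 1.

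**Figure D4:**
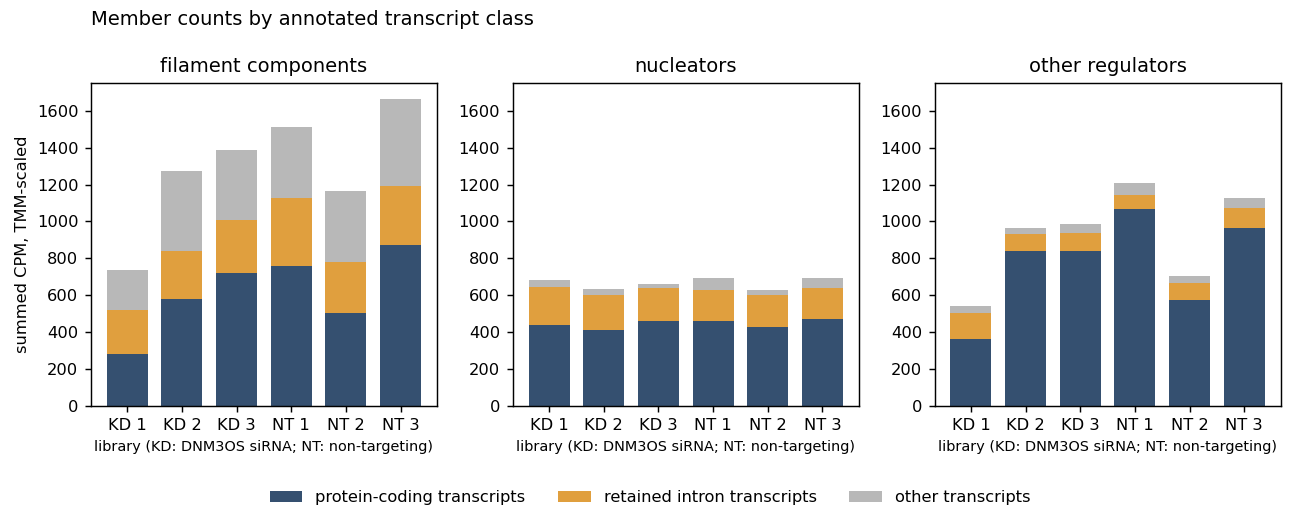
Summed CPM of member transcripts in each library, split by annotated class and shown for components, nucleators and other regulators (KD, DNM3OS siRNA; NT, non-targeting siRNA). Protein-coding transcripts of components range from 278 CPM in KD 1 to 871 CPM in NT 3, while those of nucleators lie between 413 and 468 CPM.

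Coding transcripts held 47.7% of component counts, 66.8% of nucleator counts and 83.4% of the counts of other regulators. Component coding transcripts summed to 278, 581 and 719 CPM in the knockdown libraries and 756, 503 and 871 CPM in the controls. Those of nucleators were 440, 413 and 461 CPM against 459, 426 and 468 CPM. In these nucleator sums, neither group nor knockdown replicate 1 stood apart, but 1 gene weighed heavily in them. ARPC5, with 94.6% of its counts on coding transcripts, had 248 CPM in knockdown replicate 1 and 140 to 174 CPM in the other 5 libraries. The sums were not taken without it. In the other regulators, knockdown replicate 1 held 360 CPM on coding transcripts, against 572 to 1065 CPM in the other 5 libraries.

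Gene by gene, the level of knockdown replicate 1 was set against the mean log2 CPM of knockdown replicates 2 and 3, which carried the same siRNA. In the 29 tested members with at least 50% of their counts on coding transcripts, the median of this difference was -0.79, and 21 were below 0. In the 20 other members the median was 0.11, and 9 were below 0. Over all tested protein-coding genes split in the same way the medians were -0.10 and 0.07. TMSB10, with all counts on coding transcripts, was at -2.81, whereas ACTA2, with most counts on a retained intron transcript, was at 0.98. ACTG1 was an exception, at -4.91 with 40.5% of its counts on coding transcripts, and ARPC5 another, at 0.72 with 94.6%.

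**Figure D5:**
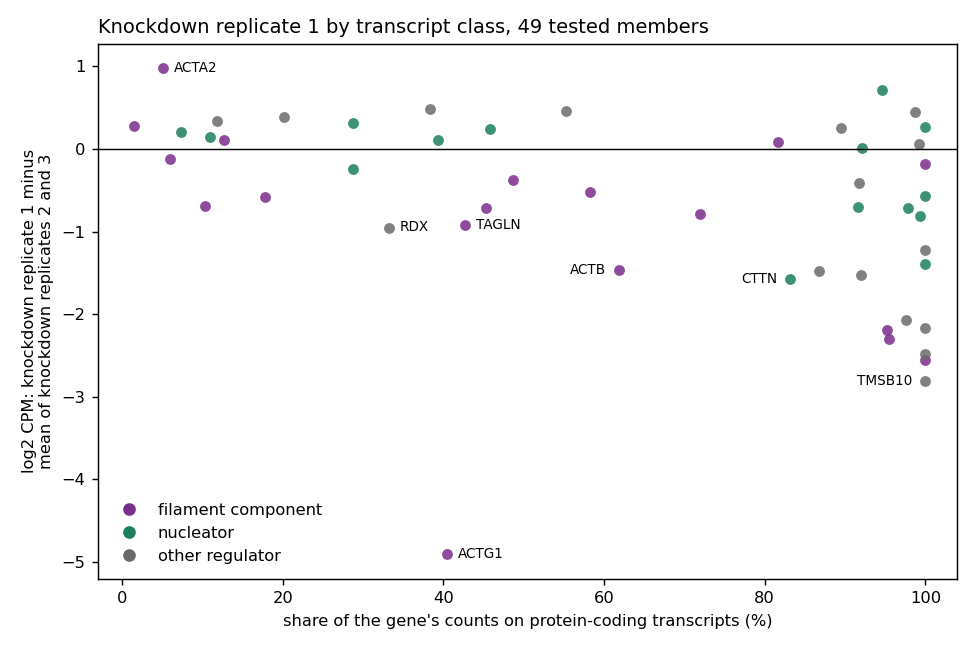
Difference in log2 CPM between knockdown replicate 1 and the mean of knockdown replicates 2 and 3 for each of the 49 tested members, against the percent of the gene's counts on protein-coding transcripts. Every point below -1 lies at a coding share of 50% or more, except ACTG1 at -4.91.

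Other genes of the actin pathways, listed by function, gave the background for the members. Of 78 such genes 62 were tested, 0 passed the threshold in edgeR's exact test, 47 had values below 0 and 15 above, and the median log2 fold change was -0.17. Crosslinkers and adaptors had a median of -0.25 (20 of 22 below 0), nucleation regulators 0.03 (7 of 16) and SRF and MRTF target genes -0.18 (6 of 7). At an unadjusted p under 0.05 in that test there were 0 lower and 1 higher, WIPF1, where 1.91% and 1.01% of all tested genes were. Groups did not overlap for 1 lower and 2 higher of the 62 genes, where the shares over all tested genes were 3.56% and 4.42%. The higher genes were SSH2, a cofilin phosphatase, and WIPF1, which binds WASP proteins. Their log2 fold changes were 0.29 with a standard error of 0.088 and 0.95 with a standard error of 0.28. WIPF1 had 7.02 to 13.5 CPM in the knockdown libraries and 5.24 to 6.27 CPM in the controls (adjusted p = 1 in edgeR's exact test). These levels rested on 10 to 29 and 8 to 11 counts, and the highest was in knockdown replicate 1.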

How the data were processed

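Per the submitters' processing notes, reads were quantified with kallisto 0.43.0 on GRCh38. The authors deposited for each of 173259 transcripts an estimated count, not normalized, and a TPM value, normalized for length and depth. The strand setting is not given in the sources used here. Transcripts outside GENCODE 44 (17741, with 4.78% to 6.38% of counts) were left out. Estimated counts were summed per gene, rounded, filtered with filterByExpr (minimum count 10), scaled by TMM and compared with the exact test of edgeR 4.0.16 (R 4.3.3), with Benjamini-Hochberg adjustment over 11814 genes and the study's threshold (2-fold, adjusted p 0.05). The biological coefficient of variation was 0.232. Standard errors come from log2 CPM with a prior count of 2, and exact permutation tests are two-sided. Samples were grouped by their labels.

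Sample values are given for the actins, members called or without overlap, and in each role the most abundant tested member and that with the largest fold change. Alternatives were RLE scaling, other filters, DESeq2 1.42.0, quasi-likelihood fits with or without the replicate number as a block or with the ribosomal share, length-scaled counts, protein-coding genes or transcripts only, and each library left out. Fits were tested on simulated data. A subgroup of the other actin genes is not reported here. Members and lists were chosen with earlier results of these data known. Python 3.11.15, pandas 2.3.3 and numpy 2.4.6 were used for the sums.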

Additional observations from a re-analysis of the deposited data

How the results depend on the processing

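No member and no other actin gene was called under any alternative run, and the smallest adjusted p of a member with sample values was 0.311. The main fit called 0.00846% of all tested genes as lower and 0% as higher. The shares called under the alternatives are not given. Of 25 such members, 12 changed sign under at least 1 of up to 16 alternatives. Members lower without overlap numbered 2 with length-scaled TPM counts (3.99% of genes) and 1 with protein-coding transcripts only (3.47%). Those higher numbered 0 with protein-coding transcripts only (4.46%). Leaving out 1 library at a time gave 5 to 20 lower and 2 to 4 higher members. The shares over all tested genes were then 6.02% to 15.0% lower and 6.73% to 12.8% higher. Medians were -0.40 to -0.08 for components and -0.23 to -0.02 for nucleators, and differences in log2 ratio were -0.45 to -0.07. The log2 ratio difference was -0.65 with protein-coding transcripts only. With the ribosomal share as a covariate, the medians were 0.12 for components and 0.12 for nucleators, and the sign turned for ACTG1 (0.10), ACTA2 (-0.43), MYL12B (0.25), FMNL2 (-0.060), CTTN (0.26), TMSB4X (0.14), TMSB10 (0.43), CAPZA1 (0.42), EZR (0.75), MSN (0.040) and MRTFB (-0.10). The cause was not tested. ACTA2 was -0.0033 with a 1 CPM filter, -0.0028 with DESeq2 and -0.00058 with RLE scaling, and LIMK1 was -0.11 with protein-coding transcripts only. Without single libraries, ACTA2 ranged from -0.39 to 0.29, FMNL2 from -0.036 to 0.12, CAPZA1 from -0.49 to 0.22, EZR from -0.83 to 0.39 and MRTFB from -0.10 to 0.25. Replicate numbers did not pair the libraries: deviations of same-numbered libraries correlated at -0.40, -0.34 and 0.23 across genes. With the replicate number as a block, 0 members were called, as without it, the medians were -0.32 for components and -0.11 for nucleators, and ACTA2 was -0.072. At 6 to 17 counts per library, as for ARPC1A, counting error limits what can be seen.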
